A study of Mus musculus with 18 samples.

Results

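Cytosolic ribosomal protein genes were examined in mouse gastrocnemius, a calf muscle, 24 h after an injection of tunicamycin or saline. Genes were taken when their symbol had the form of an Rpl, Rps or Rplp name, copies marked as pseudogenes in the symbol were left out, and only probesets annotated with a single symbol were used. This gave 66 genes, measured by 106 probesets, of 22180 genes and 41345 probesets in all. The 66 genes comprised 35 proteins of the large subunit, 22 proteins of the small subunit, 7 paralogs (Rpl3l, Rpl7l1, Rpl10l, Rpl22l1, Rpl39l, Rps4l and Rps27l), and Rpl6l and Rpl32l, which belong to neither set. The annotation gave 64 as protein coding and 2, Rpl6l and Rps4l, as pseudogenes. A general list of the mammalian ribosome holds 80 proteins, of which 57 were among the 66 genes. Of the other 23, 12 (Rpl10 and Rps2 among them) were represented by probesets annotated with several symbols, 9 had no probeset annotated with their symbol, and Rpsa and Fau had their own probesets but names of another form. These 23 genes were not counted as members.

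The study compared the legs of 9 wild-type mice, which the labels call female and mix C57Bl6/J-SV129. The methods of the study give male C57BL/6J animals instead, and which strain holds is not settled. In every mouse but mouse 9, Xist, the noncoding RNA of the inactive X chromosome, had signals of 9.22 to 9.52 in both legs. The Y-linked genes Kdm5d, Eif2s3y and Uty were at most 3.53 in all legs, so these mice had the pattern of females, as labelled. Xist was low in mouse 9 (4.79 and 4.90), and its sex is not settled. In every animal one gastrocnemius was injected with tunicamycin (30 µg in a volume of 30 µL) and the opposite one with saline, so there were 9 saline and 9 tunicamycin arrays, 1 per muscle. Tunicamycin blocks N-linked glycosylation and thereby causes endoplasmic reticulum (ER) stress. Each saline leg belonged to an animal that also carried the drug in its opposite leg, and a response common to both legs cannot be seen in this design. All genotypes were wild type and no animal was left without tunicamycin.

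The cytosolic ribosome translates mRNA and consists of a large and a small subunit, each made of ribosomal RNA and many proteins. Its proteins are needed in equal numbers, and their genes are widely transcribed at high and matched rates. Most of their mRNAs begin with a terminal oligopyrimidine (TOP) motif, a cytosine at the first base followed by a run of C and T (U in the RNA), which lets the mTORC1 pathway and the binding protein Larp1 set their translation. A few proteins have paralogs with restricted expression, of which Rpl3l, the paralog of Rpl3 found in skeletal muscle and heart, is the best known in this tissue.

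To show how the start of a ribosomal protein gene looks beside that of the muscle paralog, 30 bases around the annotated transcription start are given for 7 genes, 5′ to 3′ on the transcribed strand, from RefSeq, assembly GRCm38.p6. Base 16 of each is the annotated first base of the transcript, and capitals mark the unbroken run of C and T that holds it. Rpl3l has 2 annotated starts and both are shown, and for the others the first in the table is given. The sequences of Rpl3l and Rpl10a are those of genes that changed, and the other 5 were picked as examples of members with the TOP motif at the annotated start.
Rpl3l, first start, chr17:24727811-24727840, plus strand: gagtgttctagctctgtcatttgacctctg
Rpl3l, second start, chr17:24732670-24732699, plus strand: gtcatcaacagctacagtgccccaaatgtc
Rpl10a, chr17:28328456-28328485, plus strand: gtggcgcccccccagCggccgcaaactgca
Rpl15, chr14:18270972-18271001, minus strand: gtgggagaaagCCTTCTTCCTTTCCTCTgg
Rpl35, chr2:39005117-39005146, minus strand: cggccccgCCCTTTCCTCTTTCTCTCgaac
Rps10, chr17:27635230-27635259, minus strand: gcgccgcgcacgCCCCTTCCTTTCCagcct
Rps18, chr17:33955651-33955680, minus strand: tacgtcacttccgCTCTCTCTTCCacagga
Rps6, chr4:86857353-86857382, minus strand: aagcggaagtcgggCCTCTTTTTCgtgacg

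The first base of both Rpl3l starts is neither C nor T, whereas Rpl15, Rpl35, Rps10, Rps18 and Rps6 carry a run of pyrimidines across the start. A C at the annotated start with at least 4 pyrimidines after it was found in 11 of the 51 members with a start sequence (21.6%) and in 813 of 27025 genes (3.01%). Allowing the C up to 5 bases before or after the annotated start, the motif was found in 22 of 51 members (43.1%) and in 5718 of 27025 genes (21.2%). None of the 6 paralogs with a start sequence had it at the start, and 2 had it within 5 bases. Only the transcribed strand was searched. Rpl3 and Rpl29 were among the 15 members with no start sequence in the table used here. A match describes the letters at an annotated start, which need not be the start used in muscle.

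Transcript signals of the ribosomal protein genes differed little between the legs. Of the 66 genes, 3 rose with tunicamycin, all of them proteins of the large subunit: Rpl3 by 0.22 ± 0.063 (1.16-fold), Rpl29 by 0.17 ± 0.045 (1.12-fold) and Rpl10a by 0.15 ± 0.041 (1.11-fold). One fell, the muscle paralog Rpl3l, by 0.24 ± 0.056 (1.18-fold lower). These are differences of log2 signal, tunicamycin leg less saline leg, ± the moderated standard error (SE), which limma takes from the spread over 9 mice and over all genes. Genes were called at a Benjamini-Hochberg adjusted p under 0.05 over all 22180 genes. The 4 calls were 6.06% of the members, against 10.9% of all genes. Rises made up 3 of 66 members against 4.72% of all genes, and falls 1 of 66 against 6.15%. At an unadjusted p under 0.05 there were 9 of 66 members, against 5689 of 22180 genes in all. The calls varied when 1 mouse was left out. No member rose without mouse 3, 4, 5, 6, 7 or 8, and 5 rose without mouse 9. Rpl3l was not called without mouse 3 or 4. Over all genes, calls numbered 1304 to 2142 without any one of mice 3 to 8, against 2410 with all mice. In runs that lost their calls, Rpl3 changed by 0.18 to 0.22, Rpl29 by 0.15 to 0.18 and Rpl10a by 0.13 to 0.16. Whether the mouse left out or the smaller number of mice moved the calls was not tested. After each array was centred on its median, Rpl29 alone rose, and the limma adjusted p was 0.0612 for Rpl3 and 0.0558 for Rpl10a. With its brightest probeset alone, in the uncentred data, Rpl29 was not called (adjusted p = 0.704 by limma).

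**Figure D1:**
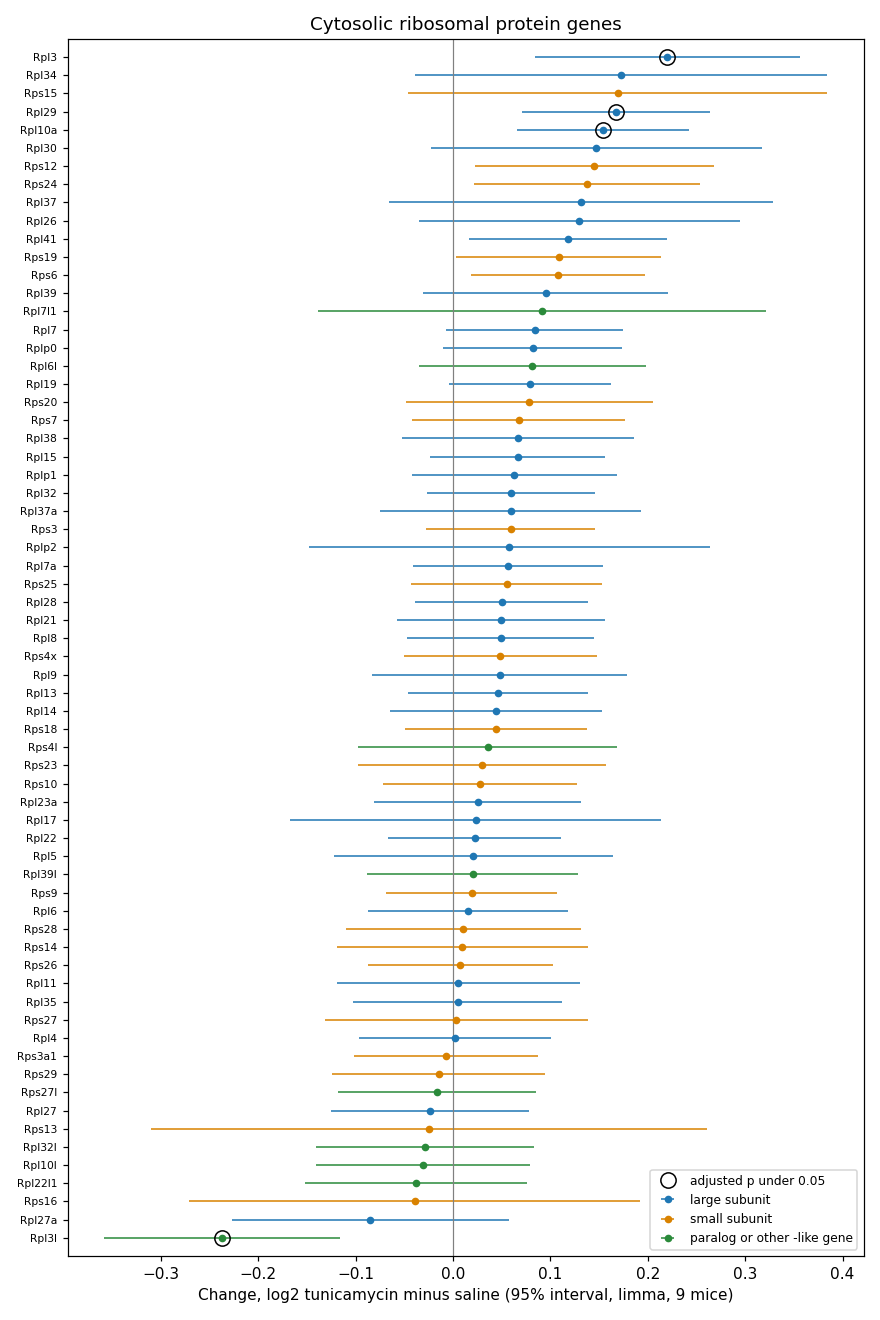
Change of each of the 66 ribosomal protein genes (x axis, log2 tunicamycin minus saline, with the 95% interval of limma over 9 mice), ordered by size and coloured by subunit. Rings mark the 4 genes with an adjusted p under 0.05; Rpl3, Rpl29 and Rpl10a lie to the right of 0 and Rpl3l, at -0.24, to the left, while most other intervals include 0.

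Most members leaned the same way by a small amount. The mean change was above 0 in 55 of 66 members (83.3%), against 52.7% of all genes, and the median change was 0.049 (quartiles 0.0098 and 0.082) against 0.0064 for all genes. Ribosomal protein genes are brighter than the average gene on the array, with a median saline signal of 6.57 against 5.39. Among the genes brighter than the median gene, 44 of 49 members lay above 0, with a median of 0.049 and 4 called (8.16%), whereas of all 11090 such genes 44.7% lay above 0, with a median of -0.018 and 18.4% called. These shares describe the members and were not tested, because genes that are measured in the same muscles are not independent. The 95% interval of the change lay within 1.2-fold in either direction for 53 of 66 members, and for 16369 of all 22180 genes. The 62 members that were not called had mean changes from -0.085 to 0.17.

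The precision for single members was high. Moderated SEs ran from 0.039 (Rpl19) to 0.13 (Rps13), with a median of 0.050. In 17 members the signal was at or below that of the median gene, Rps13, Rps20, Rpl17, Rplp2, Rps15, Rpl11 and Rpl30 among them. Their median SE was 0.062, against 0.047 in brighter members, and 0 of the 17 were called. A change is seen less well in such dim members. Over the 9 saline legs, the SD of a member had a median of 0.10, against 0.13 for all genes, with extremes of 0.039 for Rps27l and 0.34 for Rplp2. Mean saline signals ran from 2.45 for Rpl32l to 11.3 for Rpl28. Signals of different probesets depend on their sequence and are not relative amounts of mRNA, so no order of expression among the members was drawn from them.

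Rpl3l encodes a large subunit protein that takes the place of Rpl3 in ribosomes of mature striated muscle. Its signal ran from 9.40 to 9.77 in the saline legs, with a median of 9.56, and from 9.00 to 9.51 in the tunicamycin legs, with a median of 9.34. It was lower in the tunicamycin leg of all 9 mice, and 7 of 9 tunicamycin legs lay below every saline leg, although the groups overlapped. The fall had an adjusted p of 0.0186 by limma. It was largest in mouse 3 (-0.50) and mouse 4 (-0.40) and smallest in mouse 8 (-0.032), mouse 9 (-0.046) and mouse 1 (-0.049). Without mouse 3 or mouse 4 the fall was -0.20 and -0.22, with adjusted p of 0.0502 and 0.0516 by limma, and without mouse 9 it was -0.26.

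Rpl3 encodes the ubiquitous counterpart, which lies near the peptidyl transferase centre. Saline legs had signals from 6.12 to 6.47 (median 6.35) and tunicamycin legs from 6.30 to 6.74 (median 6.53). The groups overlapped, and 6 tunicamycin legs lay above every saline leg. Rpl3 was higher with tunicamycin in 8 of 9 mice, with adjusted p of 0.0417 by limma, and the largest differences were those of mouse 5 (0.51) and mouse 7 (0.41). Mouse 1 went the other way, at -0.12. Without mouse 3, 4, 5, 6, 7 or 8 the limma adjusted p was between 0.0776 and 0.101, and without mouse 9 the change was 0.24.

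Rpl10a lies at the stalk through which transfer RNA leaves the ribosome, known as the L1 stalk. Its saline signals were 9.13 to 9.44, with a median of 9.26, and its tunicamycin signals 9.29 to 9.50, with a median of 9.42. It was higher in the tunicamycin leg of all 9 mice, the only member for which this was so, while 3 tunicamycin legs lay above every saline leg. The rise was largest in mouse 2, at 0.34, and smallest in mouse 9, at 0.047. Its adjusted p by limma was 0.0305. It lay between 0.0502 and 0.0736 without mouse 2, 3, 4, 5, 6, 7 or 8, and the change was 0.17 without mouse 9.

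Rpl29, a protein on the surface of the large subunit, had saline signals from 7.99 to 8.23 (median 8.12) and tunicamycin signals from 8.16 to 8.41 (median 8.31). It was higher in 8 of 9 mice, with 7 tunicamycin legs above every saline leg, and its adjusted p by limma was 0.0309. The exception was mouse 1, at -0.0054. The adjusted p by limma was between 0.0509 and 0.08 without mouse 3, 4, 5, 6, 7 or 8, and the change was 0.17 without mouse 9.

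**Figure D2:**
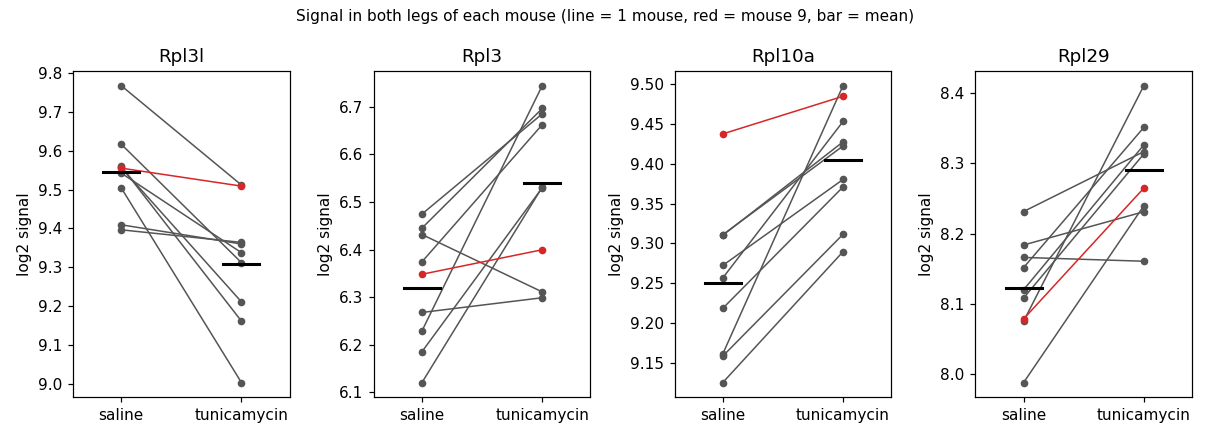
Log2 signal of the 4 called genes in the saline and the tunicamycin leg of each mouse (a line joins the legs of 1 mouse, red marks mouse 9, black bars are group means, and the y axes differ). All 9 lines fall for Rpl3l and rise for Rpl10a, and 8 of 9 rise for Rpl3 and Rpl29.

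Other proteins of the large subunit lay close to their saline values. Of the 35, 33 had a mean change above 0, with a median of 0.058, and only Rpl27a (-0.085 ± 0.066) and Rpl27 (-0.023 ± 0.047) lay below. After Rpl3, the largest mean change was that of Rpl34, which had signals of 5.40, 6.08 and 6.33 (lowest, median and highest) in saline legs and 5.59, 6.23 and 6.61 in tunicamycin legs, a difference of 0.17 ± 0.098 (adjusted p = 0.294 by limma). This gene varied more between legs than most, and its groups overlapped widely. Rpl30 (0.15 ± 0.079), Rpl37 (0.13 ± 0.091) and Rpl26 (0.13 ± 0.076) did not pass the test either. Rpl41, which encodes the shortest protein of the ribosome, had 0.12 ± 0.047, with an unadjusted p below 0.05 and adjusted p of 0.13 by limma.

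The acidic P stalk, the flexible arm of the large subunit that recruits translation factors, showed 0.082 ± 0.043 for Rplp0, 0.063 ± 0.049 for Rplp1 and 0.058 ± 0.095 for Rplp2. None of the 3 passed the test. Rplp0, which is often taken as a reference gene, had a median of 7.23 in saline and 7.34 in tunicamycin legs and was higher in 8 of 9 mice. Rpl5 (0.021 ± 0.066) and Rpl11 (0.0055 ± 0.058), which form a particle with a small ribosomal RNA and can bind the p53 regulator Mdm2, did not pass the test. Mdm2 itself had -0.068 ± 0.041. Around the exit of the peptide tunnel, where nascent chains meet the ER translocation machinery, 7 genes were measured (Rpl17, Rpl19, Rpl22, Rpl23a, Rpl26, Rpl35 and Rpl39). All 7 had mean changes above 0, from 0.0047 for Rpl35 to 0.13 for Rpl26, and 0 were called. Of these 7, Rpl19 had the tightest interval, from -0.0041 to 0.16.

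Small subunit genes were not called in either direction by limma, with 4 of the 22 at an unadjusted p under 0.05, against 5689 of all 22180 genes. Of the 22 small subunit genes 18 had mean changes above 0, and the median was 0.037. The 4 were Rps12, Rps24, Rps19 and Rps6. Rps12 went from signals of 9.42, 9.55 and 9.71 (lowest, median and highest) in saline legs to 9.49, 9.73 and 9.86 in tunicamycin legs, a change of 0.14 ± 0.057 (adjusted p = 0.124 by limma). Without mouse 9 its change was 0.19, with an adjusted p of 0.0335 by limma. Rps6, the substrate of the S6 kinases, had a median of 11.1 in saline and 11.2 in tunicamycin legs, with all 9 tunicamycin legs above the saline median. It differed by 0.11 ± 0.041, higher in 8 of 9 mice (adjusted p = 0.118 by limma). Rps24 (0.14 ± 0.054) and Rps19 (0.11 ± 0.049), both of which are mutated in the human disease Diamond-Blackfan anaemia, were likewise above 0 without passing the test. Rps15, at 0.17 ± 0.099, was the largest mean change among these 22 genes but had an adjusted p of 0.314 by limma. Below 0 were Rps16 (-0.039 ± 0.11), Rps13 (-0.025 ± 0.13), Rps29 (-0.015 ± 0.051) and Rps3a1 (-0.0073 ± 0.044), all with intervals on both sides of 0. Rps13 had a median of 2.94 in saline legs, near the low end of the array, where a change is seen less well.

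Of the 7 paralogs 3 had mean changes above 0, the median was -0.016, and 1 fell, Rpl3l. To ask whether a paralog and its parent gene differed in response, the change of the parent was subtracted from that of the paralog within each mouse. Of the 7 pairs 6 could be formed, because Rpl10, the parent of the testis gene Rpl10l, had no probeset of its own. Rpl3l minus Rpl3 was -0.46 ± 0.31 (SD, n = 9 mice) and was below 0 in 8 of 9 mice (exact two-sided sign-flip permutation test, p = 0.00781, adjusted p = 0.0469 over 6 pairs; the smallest p that 9 mice allow is 0.00391). The difference ran from -0.82 in mouse 5 to 0.071 in mouse 1. Without any one of mice 2 to 9 the mean ran from -0.50 to -0.41 and the exact permutation adjusted p was 0.0938. With 1 mouse fewer, this test passes over 6 pairs only if all mice share a sign. Mouse 1, above 0, was in each of these runs, so they could not pass and do not show dependence on the mouse left out. Both genes had passed the fit over all genes, so this difference restates their calls within mice. The other 5 pairs had mean differences from -0.075 (Rpl39l minus Rpl39) to 0.0075 (Rpl7l1 minus Rpl7), with SDs from 0.18 to 0.34 and exact adjusted p of 0.852 to 0.953. In these pairs a difference smaller than the spread between mice would not be detected.

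**Figure D3:**
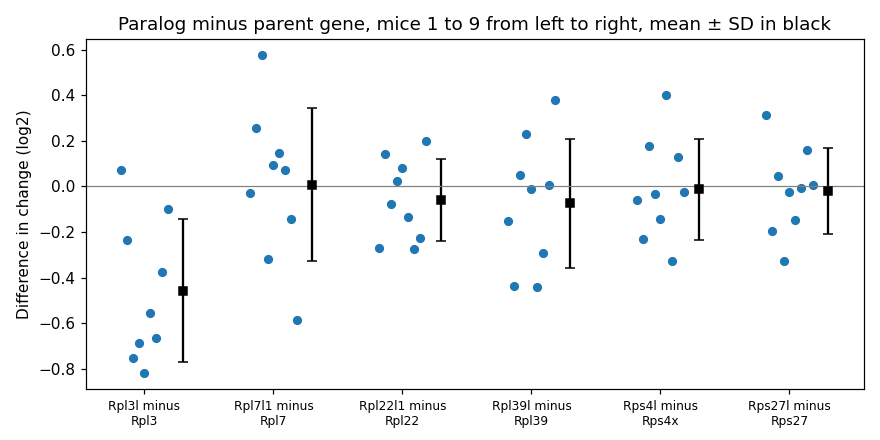
Change of each paralog minus change of its parent gene (y axis, log2), with 1 point per mouse, mice 1 to 9 from left to right, and the mean ± SD over 9 mice in black. The points of Rpl3l minus Rpl3 lie below 0 in 8 of 9 mice, and the other 5 pairs straddle 0.

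Among the other paralogs, Rps27l, a target of p53, had 7.14 to 7.26 in saline and 6.96 to 7.34 in tunicamycin legs, a change of -0.016 ± 0.047. Rpl22l1, which can stand in for Rpl22, had 3.61 to 3.99 and 3.50 to 3.89 (-0.038 ± 0.053). Rpl7l1 had 4.55 to 5.23 and 4.60 to 5.47 (0.091 ± 0.11). None passed the test, and in each gene the ranges of the groups overlapped. Rpl10l (-0.031 ± 0.051) and Rpl32l (-0.029 ± 0.052) had signals near the low end of the array, with medians of 2.82 and 2.43 in saline legs, where a change is seen less well.

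Several members rest on more than 1 probeset, and these did not always move alike. Of the 66 genes, 42 had 1 probeset and 24 had more, and in 9 of the 24 the probesets had mean changes of opposite sign. The probesets of 17 of the 24 spanned over 3 log2 units of signal, and in 3 genes (Rpl23a, Rps12 and Rps19) some probesets held identical values. Of the 106 probesets 3 were called, 2 up and 1 down, that is 2.83% against 4.48% of all probesets. The brightest probeset of a gene had a change above 0 in 23 of the 24 genes, with a median of 0.084. Of all genes, 52.7% lay above 0 with probesets averaged. With the brightest probeset of each gene, the median change was 0.056 over the 66 members and 0.0065 over all genes. Ribosomal protein genes have many processed pseudogenes, and probesets that also match such copies could not be told apart from probesets of the gene itself.

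The 3 probesets of Rpl3 had mean saline signals of 3.82, 6.76 and 8.38 and changes of 0.056 ± 0.090, 0.19 ± 0.072 and 0.41 ± 0.065. The change thus differed with the probeset, and the brightest, higher in 9 of 9 mice, had an adjusted p of 0.00909 by limma over all probesets. For Rpl29 the order was the reverse. Its bright probeset, at 11.5, changed by 0.028 ± 0.037 (adjusted p = 0.742), and its dim one, at 4.78, by 0.31 ± 0.078 (adjusted p = 0.0487 by limma). Of the probesets of Rpl29, the dim one alone passed the test. Rplp0 had 0.16 ± 0.047 in its brighter and 0.0057 ± 0.056 in its dimmer probeset. Rpl10a and Rpl3l have a single probeset each.

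**Figure D4:**
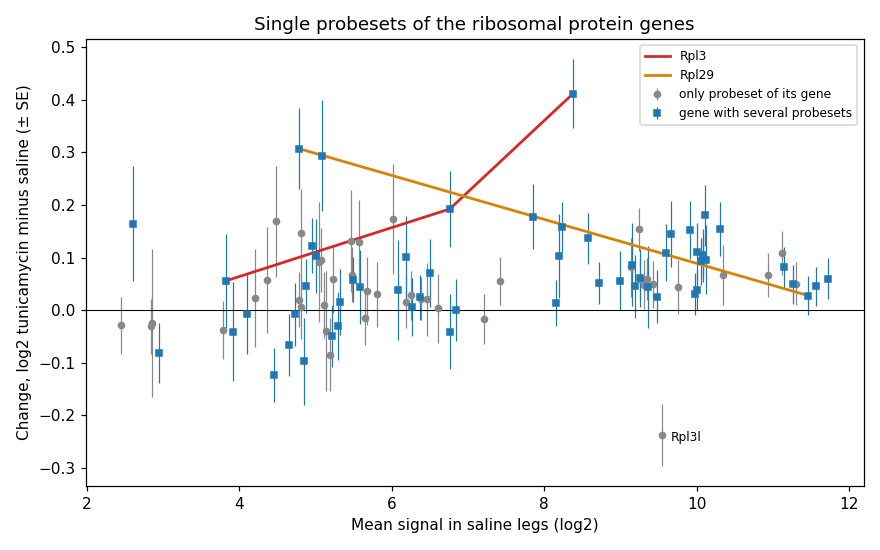
Change of the single probesets of the 66 genes (y axis, log2 tunicamycin minus saline ± SE) against their mean signal in the saline legs (x axis, log2). The lines join the probesets of Rpl3, from 0.056 to 0.41 with rising signal, and those of Rpl29, from 0.31 down to 0.028.

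The lean of the family toward higher values was not shared by all mice. The median change over the 66 genes was above 0 in 8 of 9 mice, from 0.0097 in mouse 1 to 0.11 in mouse 2, and was -0.083 in mouse 9. In mouse 9, 20 of 66 members lay above 0, against 38 to 55 in the other mice. The median over all genes stayed between -0.015 and 0.019 in every mouse. Both subunits followed this pattern, with medians of -0.067 (large) and -0.10 (small) in mouse 9 and of 0.0032 to 0.12 and 0.0059 to 0.15 in the others. Mouse 9 also stood apart in the signal of Xist, the noncoding RNA of the inactive X chromosome, with 4.79 and 4.90 in its legs against 9.22 to 9.52 in all other legs, while the Y-linked genes Kdm5d, Eif2s3y and Uty were at most 3.53 in all 18 legs. The X-linked member Rps4x had 9.41 and 9.33 in mouse 9, within the range of the other mice (9.21 to 9.50). Without mouse 9, 5 members rose and 1 fell, and the median change was 0.066.

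The response to the drug was present in every mouse but weakest in mice 1 and 9. A set of 6 ER stress genes (Hspa5, Hsp90b1, Ddit3, Atf4, Herpud1 and Xbp1) all rose, with a mean change of 0.84 ± 0.26 (SD over 9 mice). The mean was 0.40 in mouse 1 and 0.44 in mouse 9, and between 0.82 and 1.12 in the other 7. Mice 1 and 9 were also those with the lowest medians of the ribosomal protein genes, and the relation was not tested.

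**Figure D5:**
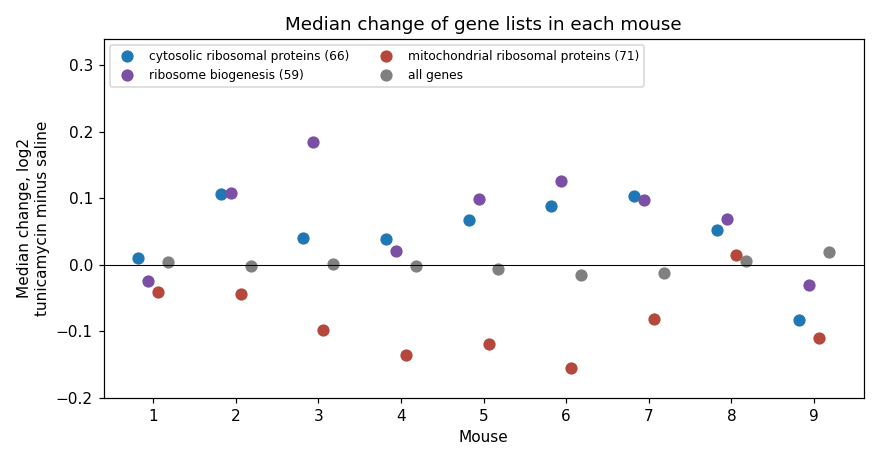
Median change (y axis, log2 tunicamycin minus saline) in each mouse (x axis) over the 66 cytosolic ribosomal protein genes, 59 ribosome biogenesis genes, 71 mitochondrial ribosomal protein genes and all 22180 genes. The cytosolic set lies above 0 in mice 1 to 8 and at -0.083 in mouse 9, and the mitochondrial set lies below 0 in all mice but mouse 8.

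Genes that act around the cytosolic ribosome were set beside its proteins. Of 59 ribosome biogenesis genes, which process ribosomal RNA and assemble the subunits, 7 rose and 0 fell by limma (11.9% called, with 23 at an unadjusted p under 0.05), 48 had mean changes above 0 and the median was 0.063. All 59 were brighter than the median gene, and of all 11090 such genes 18.4% were called and 44.7% lay above 0. Among those 11090 genes 805 rose, 1235 fell and 4193 had an unadjusted p under 0.05. The share of calls in either direction was thus not above the background, but all 7 calls of the biogenesis genes were rises. The 7 rises included the nucleolar GTPase Gnl3 (0.28 ± 0.064), Nop58, a core protein of box C/D ribonucleoproteins (0.33 ± 0.089), the assembly factor Noc3l (0.25 ± 0.066) and Heatr1, which acts in the processing of the small subunit RNA (0.22 ± 0.059). Gnl3 had signals from 8.36 to 9.00 in saline and 8.69 to 9.20 in tunicamycin legs. It was higher with tunicamycin in 8 of 9 mice. Only 1 rise was left without mouse 2, 3, 4, 5, 6 or 7, and there were 10 without mouse 9. None of the 15 RNA polymerase I genes was called by limma, with 3 at an unadjusted p under 0.05 and a median of 0.017.

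Of 15 other mRNAs with a TOP motif, which mostly encode translation factors, 2 rose, the poly(A)-binding protein gene Pabpc1 (0.27 ± 0.065) and Vim, the gene of an intermediate filament protein of mesenchymal cells (0.36 ± 0.091). Their median was 0.013, with 8 of 15 above 0. The 2 calls were 13.3% of the list, against 10.9% of all genes and 18.4% of the genes brighter than the median gene, as all 15 were. Rises numbered 0 without mouse 3 or 7 and 1 without mouse 2, 4, 5 or 6. The small subunit protein gene Rpsa, which was not a member because of its name, rose by 0.17 ± 0.044 (adjusted p = 0.0269 by limma), and Fau had 0.079 ± 0.045.

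Of 16 genes that regulate TOP mRNAs or ribosome synthesis 1 rose and 3 fell. The 4 calls were 25% of the list, against 10.9% of all genes and 18.4% of the genes brighter than the median gene, as 15 of the 16 were. Myc, a transcription factor that acts on ribosome biogenesis, had signals from 7.11 to 7.66 in saline legs (median 7.49) and from 7.49 to 8.42 in tunicamycin legs (median 8.25). It was higher in all 9 mice, by 0.63 ± 0.088 (adjusted p = 0.00153 by limma). Tsc1 (-0.22 ± 0.057) and Tsc2 (-0.15 ± 0.041), the subunits of an inhibitor of mTORC1, and Eif4ebp2, a repressor of translation that mTORC1 inactivates (-0.16 ± 0.042), each fell in 9 of 9 mice. The 3 falls were not called after quantile normalization of the arrays again, with adjusted p of 0.055 to 0.0817, no fall was called without mouse 2, 4, 6 or 7, and 1 was called without mouse 3, 5 or 8. Larp1 (-0.024 ± 0.047), Mtor (-0.019 ± 0.045) and Rptor (-0.0058 ± 0.045) did not pass the test. Eif4ebp1, the paralog of Eif4ebp2, did not pass either and lay on the other side of 0. Its change was 0.12 ± 0.042, higher in 8 of 9 mice (adjusted p = 0.082 by limma). These values are mRNA signals and do not measure translation or the activity of mTORC1.

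The proteins of the mitochondrial ribosome, which are encoded by other genes, leaned the other way. Of 71 genes 10 fell and 1 rose (15.5% called), 60 had mean changes below 0 and the median was -0.090. Of all genes 10.9% were called, and of those brighter than the median gene, as 66 of the 71 were, 18.4% were called, with a median of -0.018. The share of calls in either direction was thus near the background. Among the 11090 genes brighter than the median gene, 805 rose and 1235 fell. Mrpl18 had signals from 8.15 to 8.33 in saline and 7.89 to 8.17 in tunicamycin legs, lower in all 9 mice by 0.23 (-0.23 ± 0.040, adjusted p = 0.00463 by limma). Mrpl2 (-0.22 ± 0.042) and Mrpl57 (-0.20 ± 0.045) were also lower in all 9 mice. Mrpl52 rose, by 0.21 ± 0.059. The median of this list was below 0 in 8 of 9 mice, mouse 9 included (-0.11). The falls numbered 3 without mouse 4 or 7, 4 without mouse 3, 5 or 6 and 5 without mouse 2. The rise of Mrpl52 was not called without any one of mice 2 to 8. No test of the difference between the cytosolic and the mitochondrial set was made.

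Cell type markers were measured in the same muscles. The 10 muscle fibre genes, Acta1 and Myh4 among them, had mean signals of 11.8 to 11.9 in both groups and 0 were called by limma, with 0 at an unadjusted p under 0.05. Of 8 macrophage markers 4 rose (Adgre1, Cd68, Fcgr1 and Lyz2), against 4.72% of all genes. Itgam, Mrc1 and Cd14 lay above 0 without passing the test, and Csf1r lay below 0 (-0.11 ± 0.058, lower in 6 of 9 mice). The mean signal of the 8 ran from 6.12 to 6.89 in saline and 6.47 to 7.51 in tunicamycin legs. Of 8 neutrophil markers 4 rose (S100a8, Mmp8, Lcn2 and Csf3r), with mean signals of 5.01 to 5.52 and 5.30 to 6.08. The defining gene Ly6g (3.41 to 4.09 and 3.22 to 3.78) did not pass the test and was the 1 marker of the 8 below 0 (-0.087 ± 0.096). Of 6 fibroblast markers 2 rose, Col1a2 and Col3a1, 5 lay above 0, and Dcn lay below 0 (-0.061 ± 0.051, lower in 7 of 9 mice). One of 7 lymphocyte markers rose, Cd4, which was not called without mouse 9 (adjusted p = 0.066 by limma). Of the 7, 5 lay above 0, and Cd3e (-0.0034 ± 0.060) and Cd3g (-0.031 ± 0.091) lay below. None of the adipocyte, endothelial, proliferating cell or red cell markers was called, with 1 (Pcna) of them at an unadjusted p under 0.05. Their part in the changes of the ribosomal protein genes was not tested, and in whole muscle fewer cells of a type and less RNA per cell cannot be told apart.

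Changes were also set beside the start sequences. Members with the motif within 5 bases of the start had a median change of 0.044, and the 29 members with a start sequence and no such motif had 0.048. Rps6 and Rpl15, whose starts are printed above with runs of pyrimidines, changed by 0.11 ± 0.041 and 0.067 ± 0.042, and Rpl35, which also has such a run, by 0.0047 ± 0.050. Rpl10a, which rose, has a single C at its printed start.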

How the data were processed

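RNA of 18 gastrocnemius muscles was hybridised to MoGene-2_0-st arrays, and the deposited log2 values were made by the authors with Partek by RMA (background correction, quantile normalization, median polish), 1 value per probeset. No genome build is named for these values. Array medians ran from 4.99 to 5.07, and correlations between arrays from 0.982 to 0.991. Precision is limited by how many arrays there are. Groups and mouse numbers were read from the labels, and 0 sample columns were left unmapped.

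Of 41345 probesets, 23521 carried 1 gene symbol, 1820 several and 16004 none. Probesets with 1 symbol were averaged to 22180 genes. For 23328 of them the gene ID was found in the RefSeq table (GRCm38.p6), with 0 differing symbols. Start sequences were taken from the same source. Genes were tested with limma 3.58.1 (lmFit and eBayes, two-sided, R 4.3.3) with the mouse as a block, and p-values were adjusted by Benjamini-Hochberg over all genes. Probesets were fitted likewise. Paralog differences were tested by exact sign flips over 9 mice (512 patterns, Python 3.11.15). Both tests were tested on simulated data.

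Pairing follows the treatment labels, since each animal served for both injections. For legs sharing a mouse, deviations from the group means had a median correlation of 0.12 (-0.039 to 0.35; -0.028 in mouse 1 and -0.039 in mouse 9), against -0.013 between mice, and 6 of 9 tunicamycin legs lay closest to their own saline leg.

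The members, gene lists and alternatives were chosen with earlier results of these data known. Named genes were members past adjusted p 0.05, the 8 largest mean rises and 8 largest mean falls, all paralogs with their parents, the P stalk, tunnel exit and Rpl5/Rpl11 genes, and up to 4 rises and 4 falls of each companion list with the smallest p, 50 in all, of which part are printed. Other genes named (such as Rps6, Rpl41, Rpl37, Rpsa, Fau, Mdm2, Mtor, Larp1 and the markers) were chosen after their values were seen. Alternatives were no block, mice left out, renewed quantile normalization, centring, the brightest probeset, a filter on dim genes, array weights, another prior, the textbook gene set and single probesets.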

Additional observations from a re-analysis of the deposited data

Results flagged for a closer look

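A single leg stood apart from the other 8 of its group in 5 of 100 groups tested (50 named genes, each in saline and in tunicamycin legs), where the gap to the nearest leg exceeded Dixon's critical value as a share of the range of the group. Chance marks about 1 in 20 groups. All 5 were tunicamycin legs. Rpl27 was 6.53 in mouse 1 (6.72 to 6.92 in the others) and Rplp0 was 7.21 in mouse 1 (7.31 to 7.40). Rpl39 was 5.35 in mouse 7 (5.10 to 5.21), Rps4x was 9.47 in mouse 2 (9.31 to 9.39), and Mrpl57 was 5.99 in mouse 3 (6.28 to 6.52).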

How the results depend on the processing

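The median change of the 66 genes stayed between 0.030 (centring on array medians) and 0.073 (mice 1 and 9 left out), and between 0.040 and 0.066 with single mice left out. Over 50 named genes and all alternatives, 739 comparisons stayed on their side of the threshold, 92 lost the call, 5 gained one, and no called gene changed sign. Beside 3 rises, centring gave 1 and leaving out mice 1 and 9 gave 8. Single mice left out gave 0 to 5 rises and 0 to 1 fall. The textbook gene set gave 0 falls, because it does not hold the paralog Rpl3l. Over all genes, rises ran from 563 to 1338 and falls from 741 to 1474 with single mice left out. Falls were 56.6% of all calls, 49.4% after quantile normalization again, 69.0% after centring and 49.8% without the block. Without the mouse block, 3 members rose and 1 fell, 1859 genes were called in all, and biogenesis rises were 4, regulator falls 1 and mitochondrial falls 5.

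Biogenesis rises (7) were 4 after centring, 13 with genes above the median level, 12 without mice 1 and 9, 13 after quantile normalization, 13 with a trended robust prior, and 1 to 10 with single mice left out. RNA polymerase I rises (0) were 1 with array weights and 1 among genes above the median level. Other TOP rises ran from 0 to 3. Regulator rises were 2 among genes above the median level and 2 with the trended prior, and regulator falls were 0 after quantile normalization and 0 to 3 with single mice left out. Mitochondrial rises were 0 after centring, 2 under array weights, the level filter, no mice 1 and 9, quantile normalization and the trended prior, and 0 to 2 with single mice left out. Mitochondrial falls were 17 with the level filter, 5 after quantile normalization and 3 to 10 with single mice left out. Rpl3l minus Rpl3 was -0.65 with the brightest probesets (exact permutation adjusted p = 0.0234) and ran from -0.52 to -0.41 with single mice left out. Its exact permutation adjusted p was 0.0938 without any one of mice 2 to 9, runs that could not pass because mouse 1 lay above 0. The cause of the other differences between settings, the smaller number of mice or genes included, was not tested. Rpl29 lost its call with its brightest probeset (adjusted p = 0.704), Rpl3 and Rpl10a after centring (0.0612 and 0.0558). Small changes at low signal are seen least well.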
